A study of Mus musculus with 2 samples.

Results

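The mucin-type glycosyltransferase genes were examined in mouse intestinal organoids (mIOs) cultured with and without dextran sulfate sodium (DSS). Members were chosen by name: every gene symbol of the families Galnt, C1galt, Gcnt, B3gnt, B3galt, B4galt, Fut, St3gal, St6gal (with St6galnac) and St8sia with at least 10 counts in either library. There were 54 genes with such a name in the table of 19294 genes, and 53 of them reached the minimum, among 17235 genes that did. The gene left out was St8sia3os, an antisense gene with 2 counts in control and 4 in DSS. Just inside the minimum were B3gnt6, with 9 counts in control and 14 in DSS, and St3gal2, with 15 and 10. A name in these families does not mean that the enzyme acts on mucins. Some members that work on other glycans are pointed out where they are described, but not all.

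The 2 libraries came from organoids of Lgr5-EGFP-IRES-creERT2 mice, a line in which the Lgr5 locus, active in intestinal stem cells, carries EGFP and an inducible Cre. Both were grown from jejunal crypts in Matrigel with EGF, Noggin and R-spondin, and both are labelled day 4. One culture was an untreated control, and the other had received DSS, a sulfated sugar polymer used to injure gut epithelium, for 4 days at a concentration that the sources used here do not give for sequencing. The organoids were digested out of the Matrigel before RNA was taken, and the age, sex and number of mice are not given in the sources used here. Messenger RNA was sequenced, and the deposited values are raw read counts per gene, 65493032 in control and 59746968 in DSS.

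Each condition had 1 library, so no test between conditions was possible, and the report gives neither p-values nor SDs. The log2 ratio of DSS over control was computed from counts scaled with TMM factors, which set the 2 libraries to a common level. Levels are given as CPM, the usual unit of counts relative to the scaled library size, and per kb of exon where genes are compared. Its exact 95% interval, in square brackets, covers counting error only and not the spread between cultures. "Higher" and "lower" therefore describe this pair of libraries. Lines of 1 and 2 on the log2 scale (a doubling and a 4-fold difference) serve to count genes.

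Mucins are large glycoproteins that form the mucus gel and the membrane-bound glycocalyx of the gut, and most of their mass is O-linked sugar. The chains are built in the Golgi apparatus in a fixed order of steps. GALNT enzymes attach the first sugar, N-acetylgalactosamine (GalNAc), to serine or threonine, core enzymes add galactose or N-acetylglucosamine (GlcNAc) to it, other galactosyltransferases and GlcNAc-transferases lengthen the chain, and fucose and sialic acid cap its ends. The enzymes of a step compete for the same acceptor, so which of them a cell makes shapes the glycans on its surface.

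Of the 53 members, 38 had a log2 ratio above 0 and 15 below 0, and the median was 0.46 against -0.06 for all 17235 genes. A log2 ratio of 1 or more was found for 15 members (28.3%), where 19.3% of all genes were that high. A ratio of -1 or less was found for 6 members (11.3%), where 20.2% of all genes were that low. Some of these members reached 10 counts only in the library where they were higher. They were B3gnt6, Fut7 and St8sia4 in DSS, and B3gnt8, B4galt2 and St6galnac1 in control. With at least 10 counts required in both libraries, 12 members stayed past the upper line and 3 past the lower line. At the outer lines, 10 members were at 2 or more, against 7.87% of all genes, and 2 were at -2 or less, against 6.54%. The other 32 members lay within 1 of 0, a share of 60.4% beside 60.5% of all genes. The higher members thus came from every step, whereas the lower ones lay in extension, fucosylation and sialylation. The lower ones in extension, B3gnt8 and B4galt2, both reached 10 counts only in control.

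The split between higher and lower members moved with the scaling. Of the 21 members past a line of 1, 71.4% were higher (all genes, 48.9%). That share was 80.0% when members needed at least 10 counts in both libraries, a minimum not applied to all genes. Scaling by total counts alone shifted every ratio by -0.26 and gave 12 higher and 8 lower members (all genes, 37.1% higher).

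**Figure D1:**
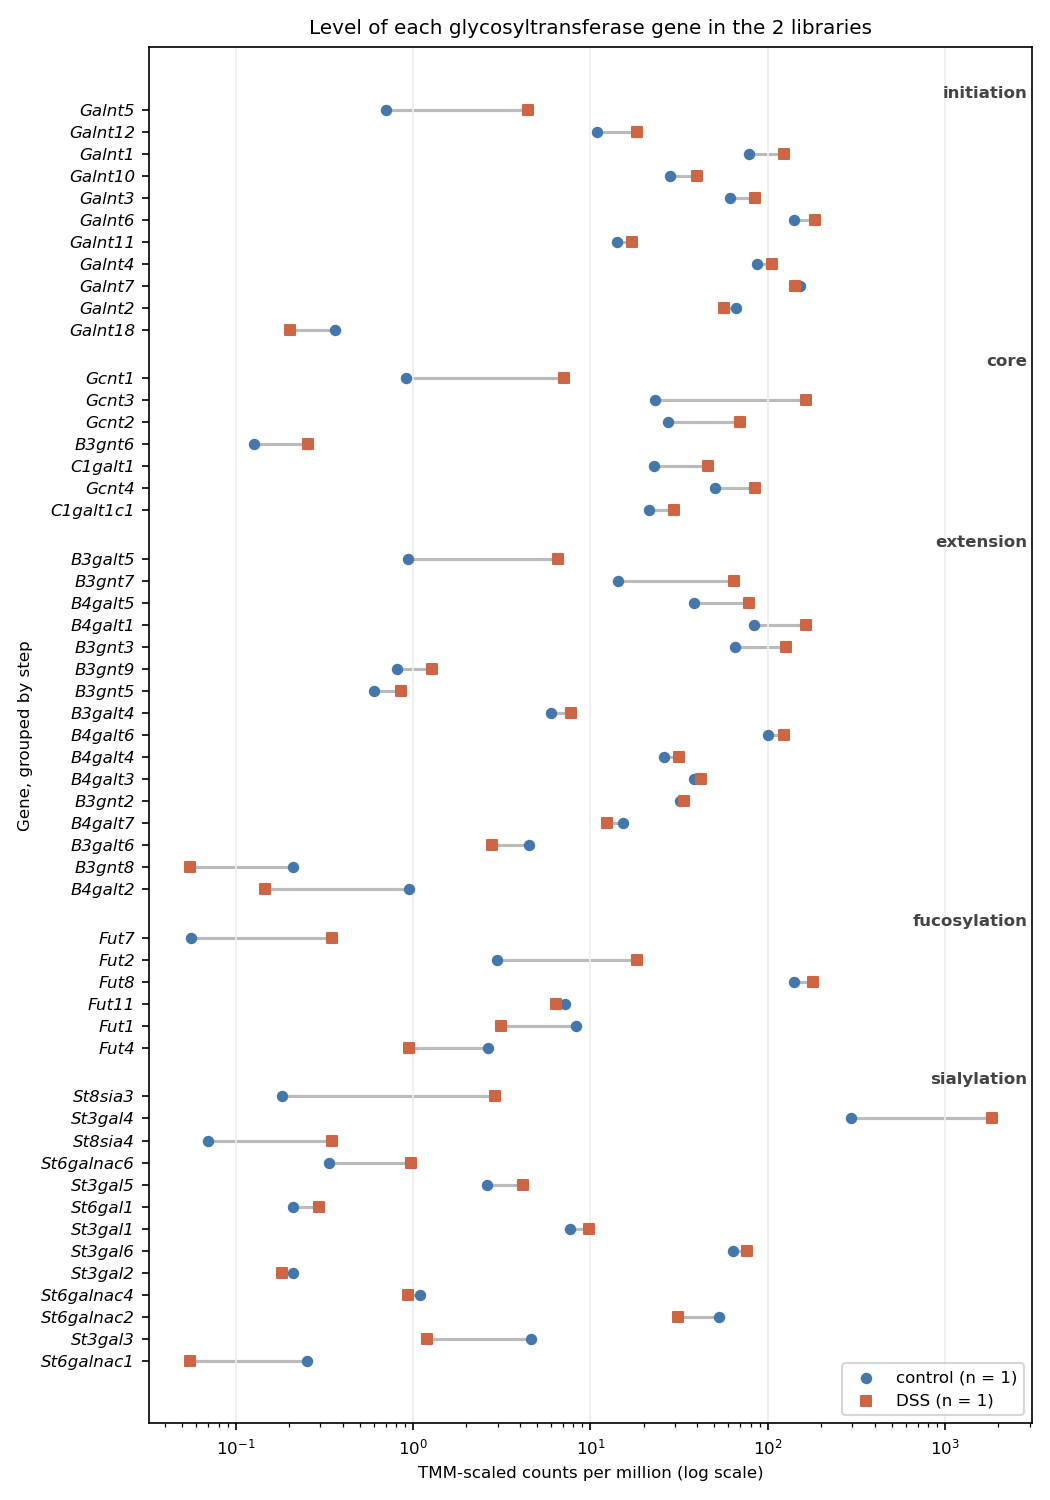
TMM-scaled CPM (log axis) of each of the 53 members in the control library (blue circles) and the DSS library (orange squares), grouped by step, with n = 1 library per condition. St3gal4 lies farthest to the right in both libraries, at 296 in control and 1836 in DSS.

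The culture as a whole differed in its cell markers, which is measured here in bulk RNA, where fewer cells of a type and less RNA per cell cannot be told apart. All 8 goblet cell markers were higher in DSS (median log2 ratio 3.16, summed level 866 to 11711 CPM), as were all 8 enterocyte markers (3.01, 2009 to 20295 CPM) and all 5 enteroendocrine markers (2.30, 791 to 4020 CPM). All 5 stem cell markers were lower (-3.78, 966 to 191 CPM), all 5 Paneth cell markers had ratios below 0 (-1.19, 633 to 212 CPM), and so had the 4 tuft cell markers measured (-1.36, 8.87 to 4.39 CPM). By RT-PCR, the paper on these organoids reports lower Lgr5 and Lyz under DSS, but similar levels of Vil1, Muc2 and Chga. In these libraries Vil1 was 2.38-fold, Muc2 31.5-fold and Chga 6.07-fold higher. The reason for that difference was not tested. The 6 general epithelial genes summed to 4434 and 5643 CPM and had ratios from -1.35 for Cdx2 to 0.84 for Krt8, with Epcam at 0.03, Cdh1 at -0.03 and Cdx1 at -0.61. Markers of other tissues were low in both libraries, at 1.40 and 1.98 CPM for the 3 of 8 mesenchymal genes measured, 14.0 and 24.2 CPM for 3 of 6 immune genes and 0.335 and 2.78 CPM for 2 of 4 endothelial genes. The part that cell composition plays in the member ratios was not tested. The cell type label names stem cells, while the libraries hold markers of the differentiated lineages at high levels.

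Promoter sequences were matched for 37 of the 53 members, from 250 bases before to 50 after the start in RefSeq (GRCm38.p6), which gave 53 windows. Member windows were richer in G and C than all 32851 windows of the table, with a median GC content of 59.7% against 52.7%. The GC box GGGCGG, searched on both strands like the other motifs, was in 56.6% of member windows and 35.7% of all windows. Motifs of intestinal factors were rare: the CDX motif TTTATNG was in 3 member windows (5.66%, against 10.9% of all), the HNF1 motif GTTAAT in 1 (1.89%, against 7.10%) and the HNF4 motif CAAAGTCCA in 1 (1.89%, against 0.475%). The E2F motif TTTCGCGC was in none of the member windows and in 0.323% of all windows. No motif contains another, and a match is a description of the letters and not a binding site.

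The 250 bases upstream of the start are shown for 3 members whose counts differed in distinct ways and whose windows touch no annotated exon, 5′ to 3′ on the gene's strand with motif matches on either strand in capitals. B3galt5 (7.03-fold higher in DSS, chr16:96235551-96235800, plus strand, the outermost of its 3 starts) held none of the motifs. B3gnt3 (1.94-fold higher, chr8:71701801-71702050, minus strand) held the HNF4 match, 154 bases before the start, and a GC box. St3gal3 (3.90-fold lower, chr4:118134947-118135196, minus strand) held GC boxes 73 and 28 bases before the start, read here as CCGCCC.
B3galt5: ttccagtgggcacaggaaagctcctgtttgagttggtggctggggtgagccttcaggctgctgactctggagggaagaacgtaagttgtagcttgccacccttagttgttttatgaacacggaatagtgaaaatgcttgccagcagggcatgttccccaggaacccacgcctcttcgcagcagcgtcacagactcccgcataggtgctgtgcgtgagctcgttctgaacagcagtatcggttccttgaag
B3gnt3: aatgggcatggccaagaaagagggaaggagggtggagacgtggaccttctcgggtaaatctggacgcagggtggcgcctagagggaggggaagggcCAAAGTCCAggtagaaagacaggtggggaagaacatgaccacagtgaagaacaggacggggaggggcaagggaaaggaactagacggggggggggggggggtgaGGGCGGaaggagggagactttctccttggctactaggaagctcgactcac
St3gal3: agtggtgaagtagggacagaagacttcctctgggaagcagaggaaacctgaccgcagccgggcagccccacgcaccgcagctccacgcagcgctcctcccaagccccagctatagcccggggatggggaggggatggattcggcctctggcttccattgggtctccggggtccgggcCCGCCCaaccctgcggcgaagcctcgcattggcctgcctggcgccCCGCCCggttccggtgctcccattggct

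Initiation had the smallest share of genes past a line of 1. Of its 11 GALNT genes, 10 lay within 1 of 0, with a median log2 ratio of 0.39. Galnt5 was the exception. It had 50 counts in control and 244 in DSS, a log2 ratio of 2.68 [2.23, 3.14], yet in DSS it still made up only 0.593% of the summed GALNT level per kb of exon. The summed level of the step went from 138 to 169 CPM per kb.

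The 2 leading GALNT genes per kb were the same in both libraries. Galnt6 had 10070 counts in control and 10083 in DSS (0.39 [0.35, 0.43] after scaling) and held 26.4% and 28.3% of the step's summed level. Galnt7, which prefers peptides that already carry a GalNAc, had 10789 and 7806 counts (-0.08) and went from 20.9% to 16.1%. Its sign turned with upper quartile scaling. Galnt1 and Galnt2, broadly expressed enzymes that act on many unmodified peptides, went in opposite directions by small amounts. Galnt1 had 5596 and 6724 counts (0.65). Galnt2 had 4714 and 3106 (-0.21), but 88.0% of its 50-base words also occur in a read-through gene model, Gm20388, so its counts depend on how such reads were assigned.

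The other GALNT genes differed little. Galnt3 had 4373 and 4631 counts (0.47), Galnt10 2021 and 2185 (0.50) and Galnt12 781 and 995 (0.74). Galnt4, which like Galnt7 takes partly glycosylated peptides and which shares 7.38% of its words with Poc1b, had 6262 and 5741 counts (0.26), and Galnt11 had 1014 and 941 (0.28). Galnt18 had the lowest ratio of the step, at 26 and 11 counts, and its interval of -2.02 to 0.21 around -0.85 held 0, so no difference was detectable at this depth. Initiation was thus carried by the same abundant genes in control and DSS.

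All 7 genes grouped under core formation had ratios above 0. At 1 or more were 5 of them (71.4%, against 19.3% of all genes). Of these, B3gnt6 and C1galt1 fell under 1 with total-count scaling, to 0.77 and 0.76, and 7 genes are too few to weigh the share. The median was 1.03, or 0.77 with total-count scaling. It is the ratio of B3gnt6, which had 9 and 14 counts, passed the minimum only through DSS and had an interval that held 0. With at least 10 counts required in both libraries, the core median was 1.18. The summed level of the step went from 37.9 to 94.1 CPM per kb, a log2 ratio of 1.31. The 2 largest ratios belonged to core 2 enzymes, which branch the chain by adding GlcNAc to the core GalNAc.

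Gcnt3 (gene 72077, chr9:70031496-70038088, minus strand) encodes the mucin-type core 2 enzyme, which also makes core 4. It had 1661 counts in control and 9033 in DSS, 23.2 and 165 CPM, for a log2 ratio of 2.83 [2.76, 2.91]. Gcnt1 (gene 14537, chr19:17326141-17372844, minus strand) encodes the leukocyte-type core 2 enzyme. It had 65 and 386 counts, 0.908 and 7.06 CPM, for a log2 ratio of 2.96 [2.58, 3.36]. The 2 core 2 genes moved by a like factor while Gcnt3 stood far above Gcnt1 per kb in both libraries, at 5.40 against 0.158 CPM per kb in control and 38.4 against 1.23 in DSS.

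The core 1 genes had smaller ratios than Gcnt1 and Gcnt3. C1galt1, the core 1 galactosyltransferase, had 1631 and 2519 counts, a log2 ratio of 1.02 [0.93, 1.11], which was under 1 with total-count scaling. C1galt1c1 encodes Cosmc, the chaperone that C1galt1 needs to fold. It had 1538 and 1615 counts, a log2 ratio of 0.46 [0.36, 0.56]. Per kb it was the leading gene of the step in control with 39.1% of the sum, and Gcnt3 led in DSS with 40.8%, up from 14.2%. With counts not divided by length, Gcnt4 led the step in control with 34.4%.

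Gcnt2 makes the branches of the I blood group antigen on poly-lactosamine chains and not a core. It had 1953 and 3792 counts, a log2 ratio of 1.35 [1.27, 1.43]. Gcnt4, a further core 2 type gene, had 3588 and 4618 counts (0.75) and went from 26.0% to 17.6% of the step's level. B3gnt6, the core 3 enzyme known from the colon, was almost undetected at 9 and 14 counts. Its log2 ratio of 1.03 [-0.28, 2.42] was the least certain of the step, and it was under 1 with total-count scaling or a prior count of 2.

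**Figure D2:**
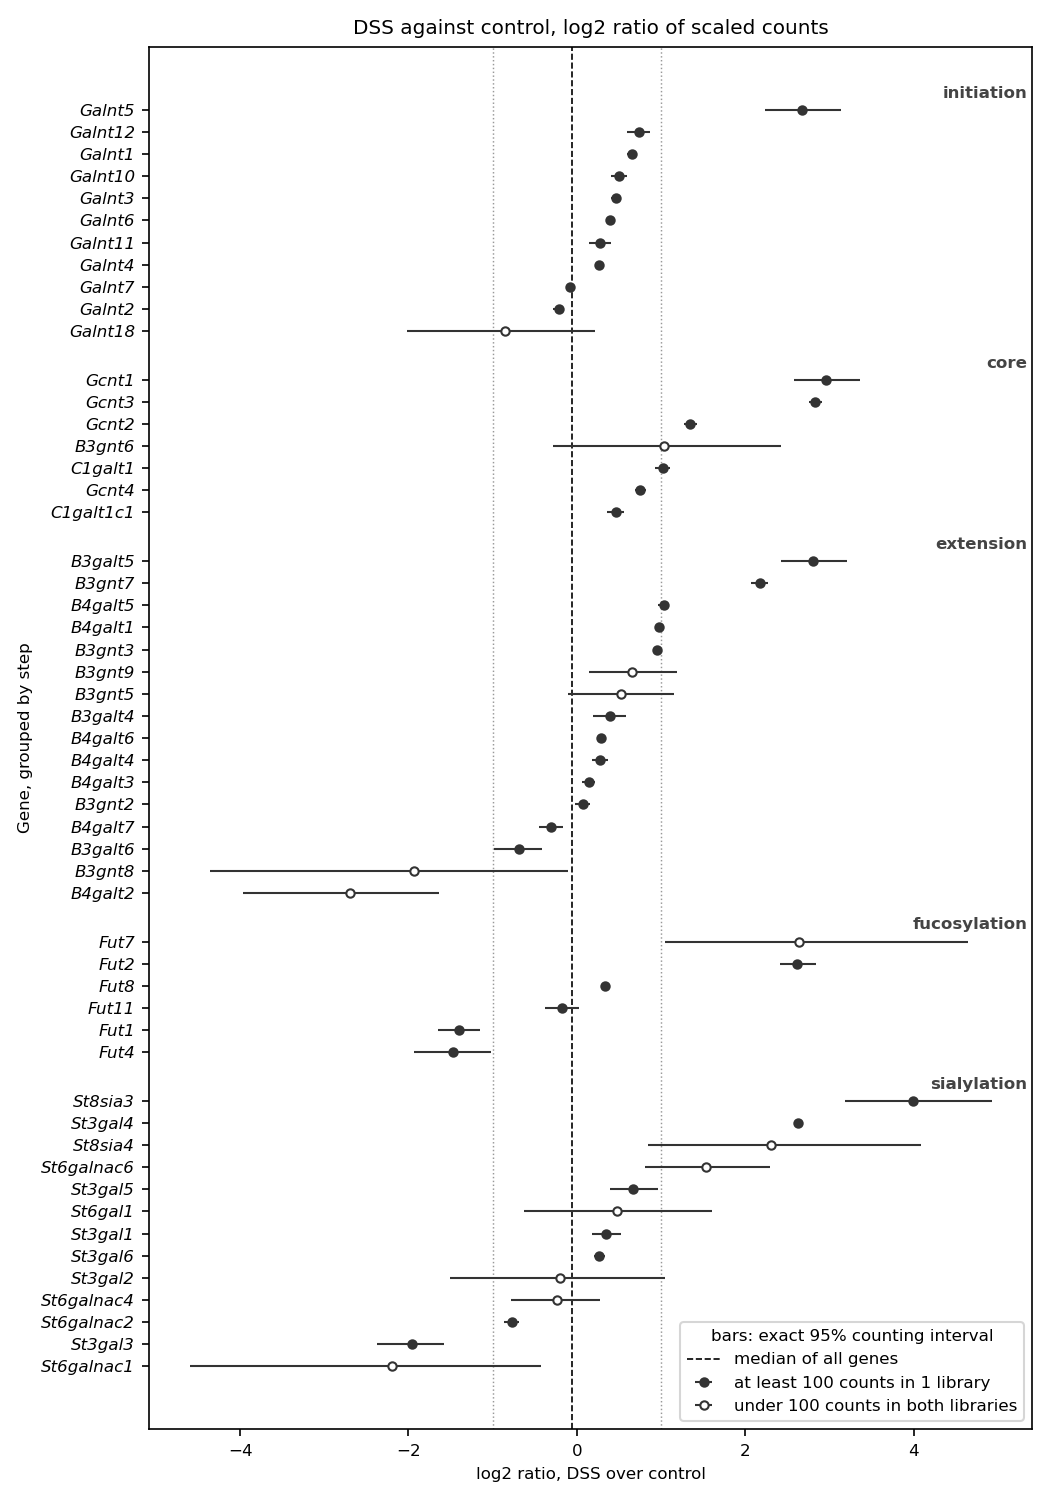
Log2 ratio of scaled counts, DSS over control (n = 1 library each), for the 53 members by step. Bars are exact 95% counting intervals, filled points have at least 100 counts in either library, the dashed line is the median of all genes at -0.06 and the dotted lines are at 1 and -1. All 7 core genes lie to the right of 0, and the bar of B3gnt6 crosses it.

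Chain extension was mixed in direction. Of 16 genes, 12 were above 0, with a median of 0.34. A ratio of 1 was reached by 3 (18.8%, against 19.3% of all genes) and -1 by 2 (12.5%, against 20.2%). The genes can be read by the sugar that each enzyme adds. Those that add GlcNAc build the poly-lactosamine repeat with those that add galactose.

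Among the GlcNAc-transferases, B3gnt7 (gene 227327, chr1:86302832-86307305, plus strand), an enzyme that lengthens poly-lactosamine and keratan sulfate chains, had the largest ratio. It had 1021 counts in control and 3505 in DSS, 14.3 and 64.1 CPM, a log2 ratio of 2.17 [2.07, 2.27]. Its share of the extension level per kb went from 3.30% to 9.00%. B3gnt3, the core 1 extension enzyme, led the step per kb in both libraries, while with no length division B4galt6 led in control and B4galt1 in DSS. It had 4654 and 6882 counts, 65.0 and 126 CPM, a log2 ratio of 0.95 [0.90, 1.01] that crossed 1 when ratios were centred on the median of all genes. Its share was 20.4% in control and 23.9% in DSS.

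The remaining GlcNAc-transferases were nearly level or rare. B3gnt2, the general poly-lactosamine enzyme, had 2278 and 1829 counts (0.07 [-0.02, 0.16]), and 64.0% of its words recur in other gene models, mainly Gm28048. B3gnt5, which starts lacto-series glycolipids, had 43 and 47 counts (0.52), and B3gnt9 had 58 and 70 (0.66). B3gnt8 had 15 and 3 counts, -1.93 [-4.36, -0.11], with 18.1% of its exonic length lying opposite exons of Bckdha. Whether the authors counted reads by strand is not stated, so reads of such overlapping genes may not be separable.

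Galactosyltransferases showed the same spread. B3galt5, which makes the type 1 chain that Lewis a and Lewis b are built on, had 67 counts in control and 360 in DSS, 0.936 and 6.58 CPM, a log2 ratio of 2.81 [2.43, 3.21]. B4galt1, the main enzyme of type 2 chains and the second gene of the step by level, had 5961 and 8971 counts (0.98 [0.93, 1.03]). B4galt5, better known for lactosylceramide synthesis, had 2739 and 4267 (1.03 [0.96, 1.10]). B4galt1 and B4galt5 lay so near the line of 1 that the scaling decided on which side they fell.

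The other galactosyltransferases had small positive ratios, apart from B4galt7, B3galt6 and B4galt2, whose ratios were below 0. B4galt6 had 7189 and 6732 counts (0.29), B4galt4 1857 and 1716 (0.27), B4galt3 2732 and 2298 (0.14) and B3galt4, a ganglioside enzyme, 428 and 427 (0.39). The ratio of B4galt3 turned negative with total-count scaling, as did that of B3gnt2. B4galt7 and B3galt6, which build the linker of proteoglycans and not mucin chains, were lower, with 1094 and 676 counts (-0.31 [-0.45, -0.17]) and 321 and 152 counts (-0.69 [-0.98, -0.41]). B4galt2 had 68 and 8 counts, the lowest ratio of all members at -2.70 [-3.97, -1.64]. A share of 25.6% of its words recurs in Ccdc24, which had 15 and 20 counts.

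**Figure D3:**
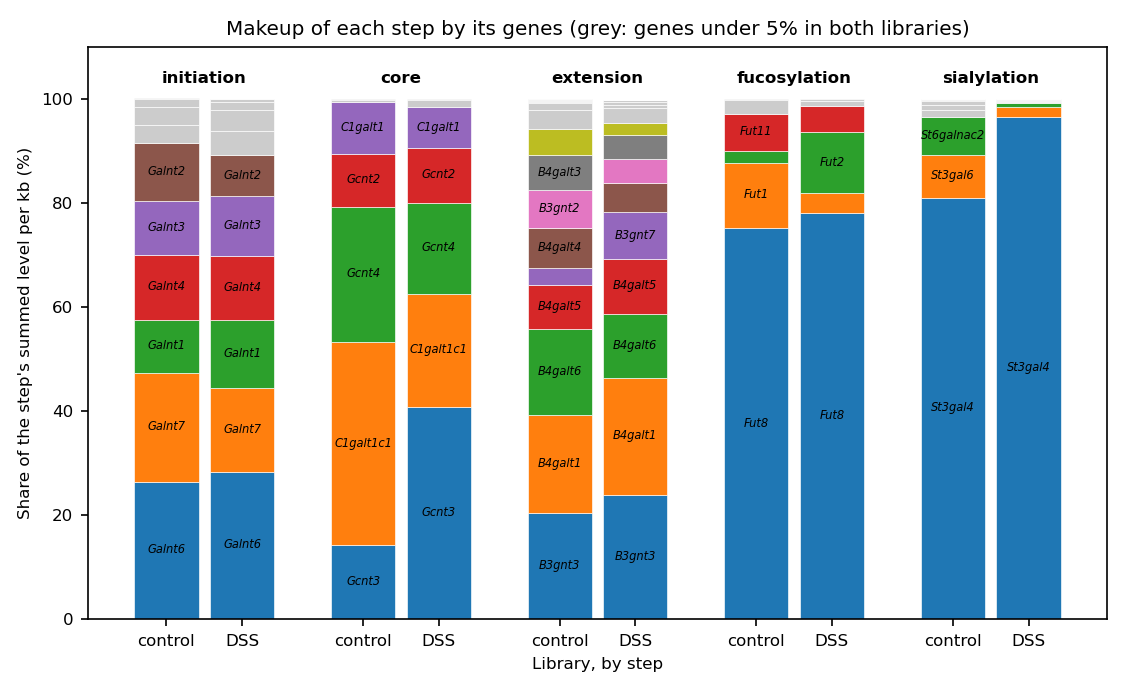
Share (%) of each member in the summed level per kb of its step, for the control and DSS libraries (n = 1 each), with genes under 5% in both libraries in grey. Gcnt3 widens from 14.2% to 40.8% of the core step and St3gal4 from 81.0% to 96.6% of the sialylation step.

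Among the fucosyltransferases, Fut1 and Fut2 moved in opposite directions. Fut1 and Fut2 are neighbours on chromosome 7 and encode enzymes that make the same H antigen by adding fucose to terminal galactose. Fut2, the secretor gene of mucosal epithelium (gene 14344, chr7:45648591-45666394, minus strand), had 214 counts in control and 1007 in DSS, 2.99 and 18.4 CPM, a log2 ratio of 2.62 [2.41, 2.84]. Fut1 (gene 14343, chr7:45617289-45621059, plus strand) had 594 and 172 counts, a log2 ratio of -1.40 [-1.65, -1.15]. Their order per kb turned over, from 2.98 for Fut1 and 0.551 CPM per kb for Fut2 in control to 1.13 and 3.39 in DSS. The count ratio of Fut2 to Fut1 went from 0.360 to 5.85, which is 16.3-fold. Fut2 shares 2.90% of its words with Sec1, a related gene not analysed here.

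Fut4, a Lewis x enzyme, was lower. It had 188 counts in control and 52 in DSS, a log2 ratio of -1.47 [-1.94, -1.02]. Fut7, the sialyl Lewis x enzyme of leukocytes, was close to the detection limit at 4 and 19 counts (2.64 [1.05, 4.65]), and it passed the count minimum only through the DSS library. Fut8 adds the core fucose of N-glycans and so is no mucin enzyme, yet it held 75.2% and 78.0% of the step's level, with 10114 and 9803 counts (0.34 [0.30, 0.38]). Fut11, which likewise has no established role in mucin capping, had 516 and 349 counts (-0.18 [-0.38, 0.02]). Each of the other genes of the step was under 20 CPM in both libraries.

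Sialylation was dominated by St3gal4 (gene 20443, chr9:35046576-35119268, minus strand), which caps galactose of type 2 chains with sialic acid. It had 21171 counts in control and 100388 in DSS, 296 and 1836 CPM, a log2 ratio of 2.63 [2.61, 2.66] or 6.21-fold. Its level stood at the 97.6th percentile of all genes in control and the 99.7th in DSS, and its ratio was number 782 from the top of 17235. It held 81.0% of the sialylation level per kb in control and 96.6% in DSS. The summed level of the step went from 125 to 650 CPM per kb with St3gal4 and from 23.7 to 21.9 without it. Opposite its exons lies the transcript 4930581F22Rik, over 14.1% of the exonic length, which had 692 and 1094 counts.

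The other St3gal genes did not follow St3gal4. St3gal6, which uses similar acceptors, had 4546 and 4171 counts (0.26), and its share went from 8.24% to 1.90%. Of its exonic length, 26.0% lies opposite Dcbld2. St3gal1, the enzyme that caps core 1, had 549 and 535 counts (0.35 [0.18, 0.53]). St3gal3 was lower, with 332 and 65 counts, a log2 ratio of -1.96 [-2.37, -1.58]. St3gal5, the GM3 synthase of glycolipids, had 187 and 228 (0.67), and St3gal2 had 15 and 10 (-0.20), a difference within its counting interval. One gene of the family was thus higher by more than 2 on the log2 scale, one was at -1.96 and the rest lay within 1 of 0.

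The St6 genes were lower or hardly detected. St6galnac2, which sialylates the core GalNAc, was the main one with 3805 counts in control and 1701 in DSS (-0.77 [-0.86, -0.69]), and its share of the step went from 7.35% to 0.827%. It passed -1 with total-count scaling. St6galnac1, the sialyl-Tn enzyme known from goblet cells, had 18 and 3 counts (-2.20 [-4.60, -0.42]), beside goblet markers that were all higher. A share of 34.9% of its words recurs in Gm11735, which had 185 and 23 counts. St6gal1, which caps N-glycans, had 15 and 16 counts (0.48 [-0.63, 1.60]), St6galnac4 79 and 51 (-0.24) and St6galnac6, a ganglioside enzyme, 24 and 53 (1.53 [0.81, 2.29]).

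The St8sia family of oligo- and polysialyltransferases gave the highest ratio of all members. St8sia3, a gene known from brain, had 13 counts in control and 158 in DSS, 0.182 and 2.89 CPM, a log2 ratio of 3.99 [3.18, 4.93], number 197 from the top of all genes. Per kb it remained 0.038% of the sialylation level in DSS. An antisense gene, St8sia3os, overlaps 7.85% of its exonic length and had 2 and 4 counts. St8sia4, a polysialic acid enzyme, had 5 and 19 counts (2.31 [0.85, 4.09]). Both were scarce beside St3gal4.

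Enzymes were compared as 12 pairs, most of which compete for an acceptor or act one after the other. Fut8 to Fut2 does neither and sets core fucose of N-glycans beside terminal fucose. For each pair the change in the ratio of their counts is free of scaling and gene length, whereas the ratio itself is not one of levels. Counting intervals often exclude 0 at this depth, and those of single genes held 0 for 3205 of all 17235 genes. Of the 12 changes, 10 had intervals that did not hold 0. The exceptions were C1galt1 to B3gnt6 (core 1 to core 3, 181 and 180, log2 change -0.01 [-1.40, 1.30]) and Gcnt3 to Gcnt1 (25.6 and 23.4, -0.13 [-0.54, 0.26]). For the first, B3gnt6 was too rare to show a change smaller than those bounds.

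Around core 1, the counts of Gcnt1 were higher in DSS relative to each partner. Gcnt1 was far rarer than Gcnt3, the mucin-type core 2 gene, with 65 and 386 counts against 1661 and 9033. No pair set Gcnt3 against these partners, so branching here stands for Gcnt1 alone. Gcnt1 to C1galt1, branching against core 1 formation, went from 0.0399 to 0.153 (1.94 [1.55, 2.36]). St3gal1 to Gcnt1, capping against branching of core 1, went from 8.45 to 1.39 (-2.61 [-3.05, -2.18]). B3gnt3 to Gcnt1, extension against branching, went from 71.6 to 17.8 (-2.01 [-2.41, -1.62]). St3gal1 to C1galt1, capping against formation of core 1, went from 0.337 to 0.212 (-0.66 [-0.86, -0.47]). The 3 pairs with Gcnt1 named here share its 65 control counts, so they are not independent of one another.

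Among the capping enzymes, the Fut2 to Fut1 change was 4.02 [3.69, 4.36] on the log2 scale. Fut4 to Fut2 went from 0.879 to 0.0516 (-4.09 [-4.61, -3.58]) and Fut8 to Fut2 from 47.3 to 9.73 (-2.28 [-2.50, -2.06]). All 3 fucose pairs thus had more Fut2 per partner in DSS, whose counts they share. B4galt1 to B3galt5, type 2 against type 1 chains, went from 89.0 to 24.9 (-1.84 [-2.24, -1.45]). The 2 pairs with a St6 gene, St6gal1 to St3gal4 (-2.15 [-3.26, -1.03]) and St6galnac1 to St3gal1 (-2.55 [-4.96, -0.76]), had the widest of these intervals, since the St6 genes had at most 18 counts.

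**Figure D4:**
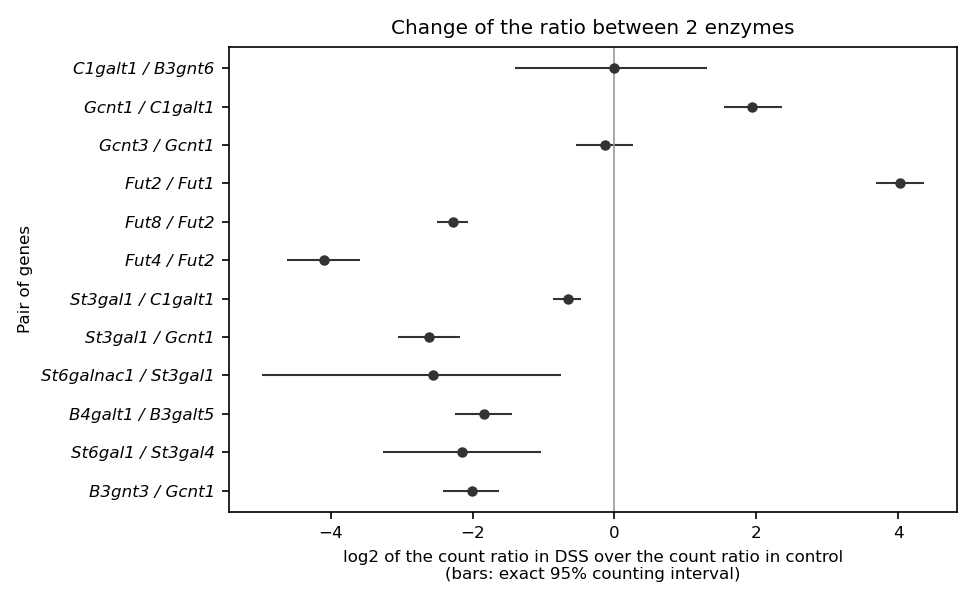
Log2 change of the count ratio between 2 enzymes, DSS over control (n = 1 library each), for 12 pairs, with exact 95% counting intervals as bars. Fut2 to Fut1 lies highest at 4.02 and Fut4 to Fut2 lowest at -4.09, while C1galt1 to B3gnt6 and Gcnt3 to Gcnt1 straddle 0.

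The rest of the pathway was read from lists of genes around the members. Most transcripts of the mucins that carry the glycans were higher. Of 7 mucin genes measured out of 13 named, 6 reached 1 (all genes, 19.3%) and none reached -1 (all genes, 20.2%). A list of 7 genes is too short to weigh such shares. Their summed level was 824 CPM in control and 5286 in DSS. The median of 2.11 is the ratio of Muc6, a rare transcript at 10 and 33 counts (2.11 [1.06, 3.30]). Muc3 had 2797 and 97996 counts (5.52), Muc2, the gel-forming mucin of goblet cells, 1848 and 44422 (4.98), and Muc3a 403 and 2548 (3.05). These mucin ratios exceed those of every glycosyltransferase except that St8sia3 lies above Muc3a. Reads shared between Muc3 and Muc3a were not examined.

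Genes that supply activated sugars lay mostly near level. Of 23 genes of sugar nucleotide synthesis measured out of 26, 1 reached 1 and 2 reached -1, with a median of 0.09. Of all genes, 19.3% and 20.2% did so. Nanp, of sialic acid synthesis, had 807 and 281 counts (-1.13), Pgm3, of UDP-GlcNAc synthesis, 2250 and 804 (-1.10), and Gmppb, of GDP-mannose synthesis, 1379 and 2143 (1.02). The 13 listed transporters of the SLC35 family split, with 5 at 1 or more, 2 at -1 or less and a median of -0.00. They need not all supply sugars to mucin chains, which was not examined here. Slc35c2 had 2180 and 7392 counts (2.15), Slc35d1 1638 and 5444 (2.12) and Slc35b1 1526 and 3010 (1.37). Slc35a1, the CMP-sialic acid transporter that sialyltransferases depend on, was named after its values were seen and had 2254 and 697 (-1.30), while St3gal4 was 6.21-fold higher.

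Sulfation and other caps were more often higher than lower. Of 15 genes measured out of 24, 9 reached 1 (all genes, 19.3%) and 1 reached -1 (all genes, 20.2%), with a median of 1.0. Papss2, which makes the sulfate donor, had 1641 and 15434 counts (3.62), Gal3st2b, a galactose sulfotransferase with near-identical relatives that may share reads, 239 and 1333 (2.87), and Chst4, a GlcNAc sulfotransferase, 142 and 782 (2.85). Among glycosidases that trim glycans, 3 of 11 reached 1 and none reached -1, with a median of 0.23. Neu3, a sialidase, had 2104 and 5665 counts (1.82), and Fuca2, a fucosidase, 5075 and 9234 (1.25).

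Relatives outside the families named above, most of them enzymes of other kinds of glycan, were also read. Of 12 such genes measured out of 15, 1 (Galntl6, a GALNT-like gene, named after its values were seen) reached 1 and 3 reached -1, with a median of -0.33. Of all genes, 19.3% reached 1 and 20.2% reached -1, and a list of 12 genes is too short to weigh such shares. The 3 lowest were B3galnt2 with 3239 and 732 counts (-1.76) and Pomt1 with 2637 and 595 (-1.76), both of O-mannosylation, and B3glct, which glucosylates O-fucose, with 2393 and 643 (-1.51). No comparison between these lists was tested.

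**Figure D5:**
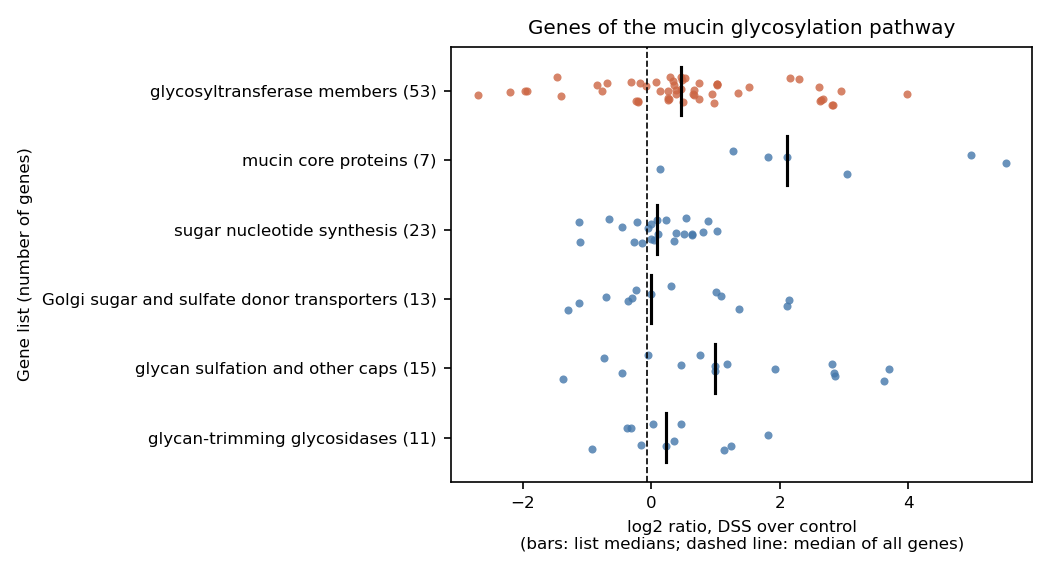
Log2 ratio of DSS over control (n = 1 library each) for the 53 members and for the genes of 5 pathway lists. Each point is 1 gene, black bars are list medians and the dashed line is the median of all genes at -0.06. The mucin core proteins have the highest median at 2.11, which is the ratio of Muc6 (10 counts in control and 33 in DSS). The members lie around 0.46.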

How the data were processed

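Raw read counts were deposited by the authors for 1 control and 1 DSS-treated organoid library, from RNeasy total RNA and a stranded mRNA kit. Files named as FPKM held the same counts for all 19294 genes and were not used separately. The submitters' processing notes name HISAT2 and StringTie without versions; genome build, annotation and strand setting are not given in the sources used here. No gene in the table is at 0 in either library. A gene with reads in only 1 library is therefore absent and could not be counted as higher or lower. Counts were scaled with TMM factors (1.09 and 0.915) in edgeR 4.0.16 under R 4.3.3. Log2 ratios carry exact Clopper-Pearson 95% intervals, and pairs an exact conditional interval (Python 3.11.15, scipy 1.17.1). The computation was tested on simulated data. Levels between genes were divided by exonic length in GENCODE vM21 (GRCm38), matched by Entrez gene ID for 53 of 53 members, which also gave coordinates and shared 50-base words. RefSeq supplied promoters.

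The members, lists and pairs were chosen with earlier results of these data known. All members are named with counts. Intervals are given for members past a line of 1 with at least 100 counts, for the leading gene of each step, for members of pairs and for some others. For each list, the 3 genes with the largest absolute ratio and at least 100 counts are named, except 1 that is not reported here. Alternatives were DESeq2 1.42.0 size factors, other scalings, count minimums, a prior count of 2, thinning, means and other lengths. Genes of these families that are not in the table (B3galt1, B3galt2, B3gnt4, Fut9, Fut10, several Galnt, Gcnt7 and 7 sialyltransferase genes) were not analysed here.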

Additional observations from a re-analysis of the deposited data

How the results depend on the processing

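No paired analysis was possible because each condition had 1 library and no test was made, and for the same reason no library could be left out. No member at 1 or more or at -1 or less changed sign under any alternative. The count of members at -1 or less went from 6 to 3 with at least 10 counts required in both libraries, and that at 1 or more from 15 to 12 and at 2 or more from 10 to 8. The count at -2 or less, 2 in the report, was 4 with total counts, 1 with a prior count of 2, thinning or at least 50 counts in one library, and 0 with at least 10 counts in both, where its rare members drop out. With total counts, the median of all members went from 0.46 to 0.20, and the step medians to 0.13 for initiation, 0.77 for core (1.03 in the report, 1.48 as a mean), 0.08 for extension, -0.17 for fucosylation and 0.10 for sialylation, with every ratio shifted by -0.26. The initiation median was 0.48 with upper quartile factors, 0.45 when centred, 0.43 with at least 50 counts and 0.44 as a mean. The fucosylation median of 0.08 turned to -0.18 with either stricter count minimum and was 0.43 as a mean, and the sialylation mean was 0.53.

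Shares within a step depend on the length used. With the longest transcript, and then with no length, the control share of Galnt6 was 24.0% and 22.0%, of C1galt1c1 36.8% and 14.7%, of Gcnt3 13.4% and 15.9%, of B3gnt3 17.7% and 15.2%, of Fut8 85.7% and 87.0% and of St3gal4 80.2% and 68.8%. In DSS they were 25.6% and 23.7% for Galnt6, 20.3% and 7.35% for C1galt1c1, 20.8% and 18.1% for B3gnt3 and 84.3% and 86.0% for Fut8, with 38.2% for Gcnt3 by transcript and 93.5% for St3gal4 with no length. With no length, Galnt7 led initiation in control with 23.6%. No pair change left its counting interval with a prior count of 2. Depth limits the 13 members under 100 counts in both libraries, of which 6 have intervals that hold 0.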
